A study of Homo sapiens with 6 samples.

Results

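The 9 enzymes and enzyme subunits of the methionine cycle and of transsulfuration were followed in MDA-MB-231, an established human breast cancer line of the triple-negative type with mesenchymal features. They were chosen by gene symbol (MAT2A, MAT2B, AHCY, AHCYL1, AHCYL2, MTR, MTRR, CBS and CTH), and all 9 were found among the 61533 gene rows of the count table. Cells that carried a short hairpin RNA against KDM2B (shKDM2B, 3 libraries) were compared with cells that carried an empty vector (3 libraries). KDM2B, a histone demethylase, brings the noncanonical Polycomb complex PRC1.1 to DNA, and the series asks, by its title, about its role with MYC and ATF4 in the regulation of amino acid metabolism genes. The knockdown columns share 1 code, which the labels do not explain, and the series has no other hairpin group to compare. Ribosome-depleted total RNA was sequenced, and the values are read counts per gene.

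The methionine cycle makes and recycles S-adenosylmethionine, the methyl donor of most cellular methylation. Methionine adenosyltransferase joins methionine and ATP, methyltransferases use the product and release S-adenosylhomocysteine, and AHCY splits that into homocysteine and adenosine. Homocysteine is either remethylated to methionine by MTR with a methyl group from folate, or leaves the cycle through CBS and CTH, which turn it into cysteine. S-adenosylhomocysteine inhibits many methyltransferases, so its removal is tied to methylation, and many cancer lines depend on supplied methionine.

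Promoter windows of the AHCY family are shown because KDM2B binds unmethylated CG dinucleotides through its CXXC zinc finger, and because AHCY had the largest change of the tested enzymes while its paralog AHCYL1 was not called. The sequences are from RefSeq on GRCh38.p14, from 250 bases before to 50 bases after an annotated start, written 5′ to 3′ on the gene's strand with each CG in capitals.
AHCY, minus strand, chr20:34303306-34303605: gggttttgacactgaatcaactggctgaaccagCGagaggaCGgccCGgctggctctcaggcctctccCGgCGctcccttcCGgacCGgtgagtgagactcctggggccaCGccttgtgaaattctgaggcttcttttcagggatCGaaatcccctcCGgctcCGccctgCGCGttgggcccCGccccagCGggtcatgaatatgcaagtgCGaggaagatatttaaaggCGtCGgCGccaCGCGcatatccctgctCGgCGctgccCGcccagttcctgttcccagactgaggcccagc
AHCY, minus strand, chr20:34302941-34303240: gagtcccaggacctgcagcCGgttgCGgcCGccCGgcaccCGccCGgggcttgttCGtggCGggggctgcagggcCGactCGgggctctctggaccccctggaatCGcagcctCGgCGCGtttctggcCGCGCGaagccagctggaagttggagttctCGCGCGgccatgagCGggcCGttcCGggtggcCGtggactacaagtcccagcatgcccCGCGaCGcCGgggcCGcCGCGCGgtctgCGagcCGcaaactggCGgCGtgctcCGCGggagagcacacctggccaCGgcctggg
AHCYL1, plus strand, chr1:109984515-109984814: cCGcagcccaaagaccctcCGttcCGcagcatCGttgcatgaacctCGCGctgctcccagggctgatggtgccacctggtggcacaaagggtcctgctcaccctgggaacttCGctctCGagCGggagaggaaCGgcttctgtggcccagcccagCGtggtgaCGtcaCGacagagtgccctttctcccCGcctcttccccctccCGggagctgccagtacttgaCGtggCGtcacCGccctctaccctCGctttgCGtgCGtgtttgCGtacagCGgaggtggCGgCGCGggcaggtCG
The AHCY windows hold 24 and 39 CG, more than 66.1% and 91.3% of the 35116 windows of 27305 genes, and the AHCYL1 window holds 27, more than 71.8%. These windows were picked as CG-rich ones. A further AHCY window holds 19 CG, and the other AHCYL1 windows hold 0 and 1. The 21 windows of the 8 enzymes that the table lists had a median of 20 CG, against 14 over all windows (quartiles 4 to 28). On either strand, TGATGNAA, a core of the sites ATF4 binds, was in 1 of the 21 windows (4.76%, against 3.62% of all windows), that of AHCYL2. CACGTG, the E-box that MYC binds, was in 0 of 21 (against 7.26%), and CCAAT was in 9 (42.86%, against 34.61%). The shares are over windows, not genes, and windows of a gene can overlap. Those of MTR overlap and hold the same CCAAT sites. None of these 3 motifs was in an AHCY window, which says only that these letters are not in the 300 bases read.

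KDM2B itself had 153, 166 and 224 counts in shKDM2B libraries, against 589, 714 and 902 in empty vector libraries, a log2 fold change of -2.12 (SE 0.08, adjusted p 8.77e-11). Totals ran from 10437732 to 15737951 counts in shKDM2B and from 10190149 to 13635565 in empty vector libraries. Mitochondrial transcripts took 0.196 to 0.476% of counts in shKDM2B libraries and 0.0767 to 0.151% in empty vector libraries, and the nuclear RNA MALAT1 took 0.246 to 0.311% in shKDM2B and 0.0958 to 0.107% in empty vector libraries. Of the marker lists, the 4 mesenchymal genes, of which 2 rose and 2 fell, summed to 4540 to 4710 CPM (counts scaled to library size by TMM) in shKDM2B and 4936 to 5265 CPM in empty vector libraries. Their log2 fold changes were 0.20 for CD44, 0.17 for AXL, -1.68 for VIM and -0.35 for CAV1. ESR1 and PGR, the hormone receptors, were too low to be tested. The 8 luminal markers, of which 3 rose, summed to 759 to 797 CPM in shKDM2B and 509 to 666 CPM in empty vector libraries. The 6 fibroblast markers, of which 2 rose, summed to 68.3 to 76.6 CPM in shKDM2B and 5.74 to 9.33 CPM in empty vector libraries. Most of this was COL1A1, with means of 66.4 CPM in shKDM2B and 5.78 CPM in empty vector libraries. COL1A2, COL3A1, DCN and LUM were too low to be tested. The 4 endothelial markers, of which 1 rose, summed to 26.3 to 27.6 CPM in shKDM2B and 8.40 to 10.7 CPM in empty vector libraries. Most of this was KDR, with means of 25.7 CPM in shKDM2B and 8.76 CPM in empty vector libraries. The 6 leukocyte markers summed to 0.788 to 1.04 CPM in shKDM2B and 0.0972 to 0.381 CPM in empty vector libraries, with CD3E and LYZ at 0. The 5 hepatocyte markers summed to 2.14 to 3.15 CPM in shKDM2B and 1.74 to 2.53 CPM in empty vector libraries, with TTR at 0. The part of these shifts in the results below was not tested.

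Among the 8 tested enzymes, the largest difference in shKDM2B cells was at the hydrolysis of S-adenosylhomocysteine. AHCY, the enzyme of that step, fell to 33.3% of its empty vector level, and MTRR, the reductase that keeps methionine synthase active, fell to 68.3%. CTH and MTR fell by smaller amounts, AHCYL2 rose slightly, and MAT2A, MAT2B and AHCYL1 did not pass the test. CBS was listed at 0. Of the 8 enzymes tested, 5 were called at an adjusted p under 0.05 in edgeR's quasi-likelihood test, 4 lower and 1 higher. This count lies close to the background, since 60.9% of the 14071 tested genes were called, 30.4% lower and 30.5% higher. The groups did not overlap for 7 of 8 enzymes, against 65.5% of all tested genes. The enzymes' median log2 fold change was -0.08 and their median size of change 0.21, against -0.01 and 0.36 over all tested genes. In bulk RNA, fewer cells of a type and less RNA per cell cannot be told apart.

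**Figure D1:**
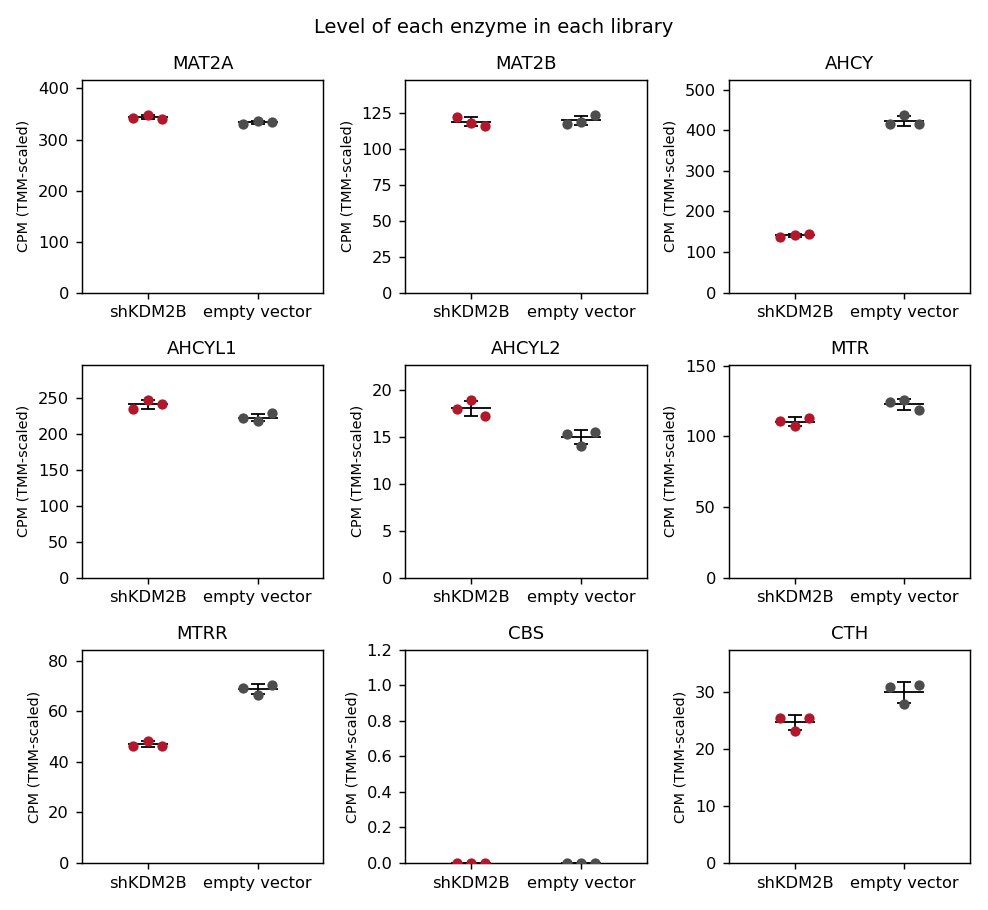
Level of each enzyme in each library, in CPM after TMM scaling, with shKDM2B left of empty vector; points are libraries and bars are the mean and SD (n = 3 each). AHCY lies at 137 to 144 CPM in shKDM2B and 416 to 437 CPM in empty vector libraries, and CBS is at 0 in all 6.

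**Figure D2:**
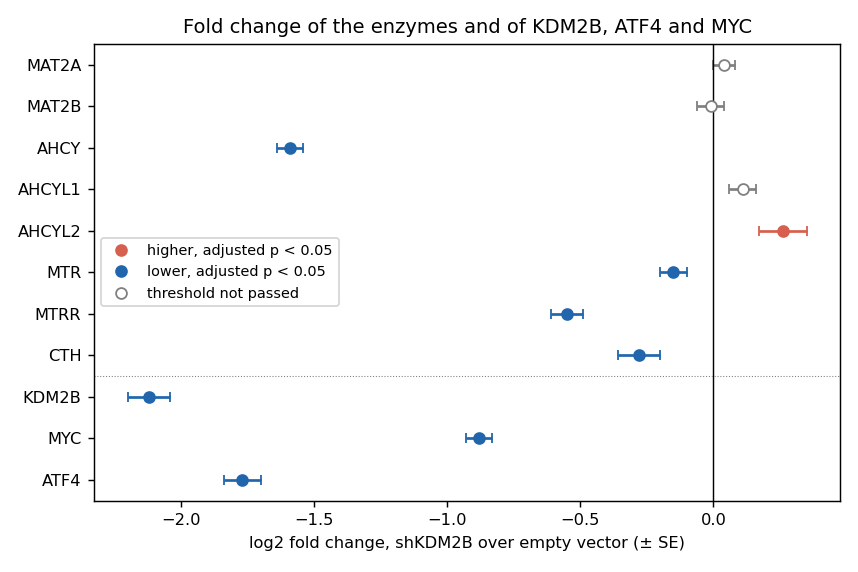
Log2 fold change, shKDM2B over empty vector, with its standard error from the edgeR fit. The tested enzymes are above the dotted line, and KDM2B (-2.12), MYC (-0.88) and ATF4 (-1.77) are below it. AHCY stands at -1.59 and MTRR at -0.55, and the other 6 enzymes lie between -0.28 and 0.26.

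The synthesis of S-adenosylmethionine is carried by MAT2A, the catalytic subunit of the form of methionine adenosyltransferase found outside the liver, and MAT2B, its regulatory subunit. MAT2A (ENSG00000168906.13, GRCh38 chromosome 2 from 85539165 to 85545280, plus strand) had 3518, 3969 and 5225 counts in shKDM2B libraries, against 3401, 3527 and 4618 in empty vector libraries. Scaled for depth, these were 342, 348 and 340 CPM in shKDM2B, against 331, 336 and 334 CPM in empty vector. The shKDM2B libraries lay just above the empty vector ones, without overlap. At a log2 fold change of 0.04 (SE 0.04, adjusted p 0.429), no difference was called. GGCX, the vitamin K-dependent carboxylase, overlaps MAT2A on the opposite strand by 558 exon bases, and no source used here gives the strand setting of the counting. GGCX had a log2 fold change of 0.09 (adjusted p 0.148).

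MAT2B (ENSG00000038274.17, chromosome 5 from 163503114 to 163519336, plus strand) had 122, 118 and 116 CPM in shKDM2B libraries, against 117, 119 and 124 CPM in empty vector libraries. The groups overlapped, and at a log2 fold change of -0.01 (SE 0.05, adjusted p 0.829) no difference was called. The ratio of MAT2A to MAT2B counts was 2.89 ± 0.0783 in shKDM2B and 2.78 ± 0.0667 in empty vector libraries (SD, n = 3 each), a log2 difference of 0.05 (SE 0.03). An exact two-sided permutation test over the 6 libraries gave p = 0.3. MAT1A, the catalytic gene of the liver form, had no count in shKDM2B libraries and at most 1 in any empty vector library.

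AHCY, the only enzyme in human cells known to hydrolyse S-adenosylhomocysteine, had the largest change of the 8 tested enzymes. It had 1413, 1616 and 2216 counts in shKDM2B libraries, against 4282, 4590 and 5753 counts in empty vector libraries. Scaled for depth, AHCY stood at 137, 142 and 144 CPM in shKDM2B libraries, against 416, 437 and 417 CPM in empty vector libraries. Each shKDM2B library lay at about the same low level, far below the lowest empty vector library. Means were 141 ± 3.48 CPM in shKDM2B and 423 ± 11.9 CPM in empty vector cells (SD, n = 3 each), a 3.00-fold decrease. Its log2 fold change of -1.59 (SE 0.05) had an adjusted p of 7.71e-12, and only 1.24% of tested genes had a lower one. AHCY (ENSG00000101444.13) lies on chromosome 20 from 34280268 to 34311802 on the minus strand. Its 6 annotated processed pseudogenes, which could share reads with it, had at most 2 counts in any library. When their counts were added to those of AHCY, its log2 fold change was -1.58.

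AHCYL1 and AHCYL2 encode proteins related to AHCY in sequence. AHCYL1 is known as IRBIT, a binder of the inositol trisphosphate receptor, and neither is known to replace AHCY as a hydrolase. AHCYL1 (ENSG00000168710.18, chromosome 1 from 109984686 to 110023741, plus strand) had 236, 247 and 241 CPM in shKDM2B libraries, against 222, 218 and 229 CPM in empty vector libraries. The groups did not overlap, but the log2 fold change of 0.11 (SE 0.05) had an adjusted p of 0.0501, just above the threshold. It came under the threshold without empty vector replicate 2 (adjusted p 0.0433) and under 3 other settings.

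AHCYL2 (ENSG00000158467.17, chromosome 7 from 129225023 to 129430211, plus strand) was the least abundant of the tested enzymes per length. It had 18.0, 18.9 and 17.3 CPM in shKDM2B libraries, against 15.4, 14.1 and 15.5 CPM in empty vector libraries. Every shKDM2B library lay above every empty vector library, and the gene rose with a log2 fold change of 0.26 (SE 0.09, adjusted p 0.0253). The call rests on single libraries: the adjusted p was 0.0602 without shKDM2B replicate 1, 0.0872 without shKDM2B replicate 2, 0.0503 without empty vector replicate 1 and 0.0660 without empty vector replicate 2.

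Within the family, AHCY took a smaller share in shKDM2B cells. Per kilobase of exon, AHCY made up 42.0, 41.6 and 42.7% of the summed level of AHCY, AHCYL1 and AHCYL2 in shKDM2B libraries, against 70.1, 71.5 and 69.5% in empty vector libraries. The family sum was 86.1 ± 1.82 CPM per kilobase in shKDM2B and 154.6 ± 2.27 CPM per kilobase in empty vector cells (SD, n = 3 each). The ratio of AHCYL1 to AHCY counts, which does not depend on library scaling, was 1.72, 1.75 and 1.67 in shKDM2B libraries, against 0.533, 0.4998 and 0.550 in empty vector libraries. AHCYL1 counts thus exceeded those of AHCY in each shKDM2B library and were below them in each empty vector library. The log2 difference was 1.70 (SE 0.04) for AHCYL1 to AHCY and 1.85 (SE 0.08) for AHCYL2 to AHCY. The groups did not overlap for either ratio, and exact two-sided permutation tests gave p = 0.1 for both, the smallest that 3 against 3 libraries allow (adjusted p 0.133 over the 4 ratios tested).

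**Figure D3:**
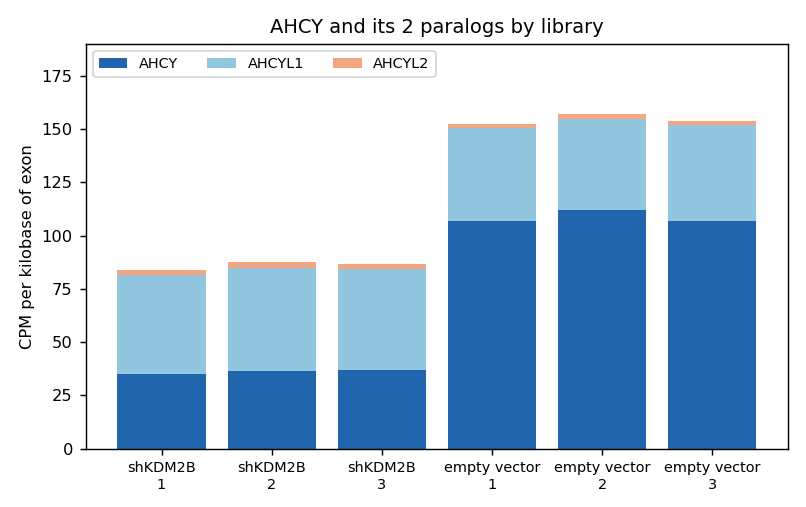
Levels of AHCY, AHCYL1 and AHCYL2 per library, in CPM per kilobase of annotated exon, with shKDM2B left of empty vector. AHCY makes up 41.6 to 42.7% of the sum in shKDM2B and 69.5 to 71.5% in empty vector libraries.

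Remethylation of homocysteine is carried out by MTR, the cobalamin-dependent methionine synthase, and MTRR, which reduces the cobalamin of MTR when it becomes oxidised. MTRR (ENSG00000124275.15, chromosome 5 from 7851186 to 7906025, plus strand) had 478, 552 and 709 counts in shKDM2B libraries, against 714, 699 and 970 in empty vector libraries. These were 46.5, 48.3 and 46.2 CPM in shKDM2B, against 69.4, 66.6 and 70.2 CPM in empty vector. The groups lay well apart relative to their spread. MTRR fell 1.46-fold, at -0.55 on the log2 scale (SE 0.06, adjusted p 1.39e-06), and 15.6% of tested genes had a lower one.

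FASTKD3, a mitochondrial RNA-binding protein, overlaps MTRR on the opposite strand by 100 exon bases. It had 17.9 ± 0.531 CPM in shKDM2B and 28.6 ± 1.66 CPM in empty vector cells (SD, n = 3 each), a log2 fold change of -0.68 (SE 0.08, adjusted p 7.81e-06). Without a stated strand setting, reads of MTRR and FASTKD3 in the shared bases cannot be told apart. The share of either count that comes from those bases was not tested. CFAP90 also overlaps MTRR on the opposite strand, by 305 exon bases, and had 0 counts in all 6 libraries.

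MTR (ENSG00000116984.15, chromosome 1 from 236795281 to 236903981, plus strand) had 111, 107 and 113 CPM in shKDM2B libraries, against 125, 126 and 118 CPM in empty vector libraries. The groups did not overlap, but the gap between them was smaller than the range within either group. MTR fell by 0.15 on the log2 scale (SE 0.05, adjusted p 0.0192). The call was lost without shKDM2B replicate 1 (adjusted p 0.0602) and without shKDM2B replicate 2 (adjusted p 0.0884). The ratio of MTR to MTRR counts was 2.38, 2.22 and 2.45 in shKDM2B libraries, against 1.796, 1.89 and 1.69 in empty vector libraries. Every shKDM2B ratio was above every empty vector ratio, with a log2 difference of 0.39 (SE 0.06; exact permutation p = 0.1, the smallest possible, adjusted p 0.133).

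Transsulfuration begins with CBS, which condenses homocysteine with serine into cystathionine, and ends with CTH, which cleaves cystathionine to cysteine. CTH (ENSG00000116761.12, chromosome 1 from 70411218 to 70439851, plus strand) had 262, 265 and 390 counts in shKDM2B libraries, against 317, 292 and 430 in empty vector libraries. These were 25.5, 23.2 and 25.4 CPM in shKDM2B, against 30.8, 27.8 and 31.1 CPM in empty vector. Replicate 2 was the lowest library of both groups, and the groups did not overlap. CTH fell by 0.28 on the log2 scale (SE 0.08, adjusted p 0.00913). Without shKDM2B replicate 2, the adjusted p was 0.0509.

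CBS (ENSG00000160200.18, chromosome 21 from 43053191 to 43076943, minus strand) had 0 counts in all 6 libraries, so it was not tested and no ratio of CTH to CBS was formed. The near-identical copy CBSL also had 0 counts in all 6. A count of 0 allows up to 3 counts a library, or 0.195 to 0.291 CPM, for reads that the counting could assign. Of the 7048 different 50-base words in annotated CBS transcripts, 3839 (54.5%) also occur in annotated CBSL transcripts, and 3209 do not. CBSL transcripts have 4220 such words, and 91.0% of them occur in CBS transcripts. Only annotated transcripts were compared, so words missing from CBSL transcripts may still lie in the genomic sequence of the copy. U2AF1, a splicing factor that every cell uses, has a copy of the same kind, U2AF1L5, and was chosen after its values were seen. U2AF1 had 26, 67 and 61 counts in shKDM2B libraries, against 64, 90 and 40 in empty vector libraries, and 94.3% of its 50-base words occur in the copy. U2AF1L5 had 25 to 63 counts over the 6 libraries. In another chromosome 21 pair, SIK1 had 24 to 103 counts and its copy SIK1B had 115 to 216. Shared words were not computed for SIK1 and SIK1B. How many shared reads these pairs lost was not tested. No source used here says how reads that map to several places were treated, so low CBS expression and loss of shared reads cannot be told apart.

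**Figure D4:**
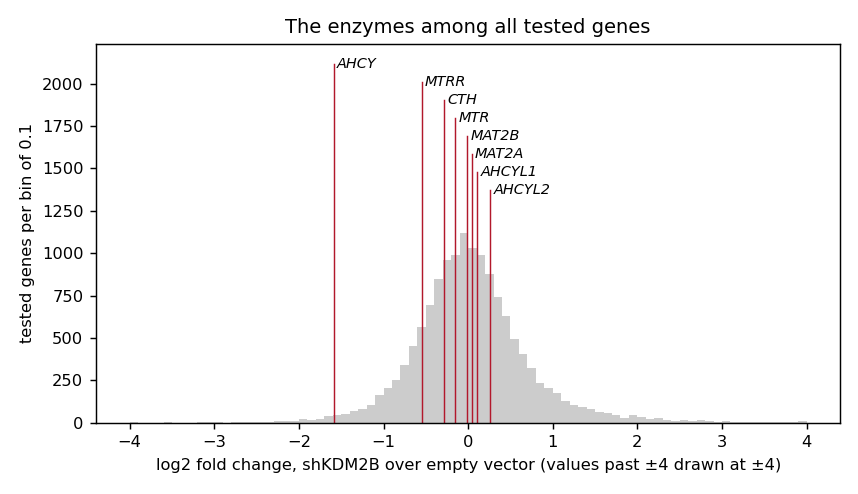
Histogram of the log2 fold changes of all 14071 tested genes, shKDM2B over empty vector, with the 8 tested enzymes marked by lines. AHCY lies in the lower tail, MTRR on the lower flank, and the other 6 near the middle.

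Per kilobase of annotated exon, the order of the enzymes differed between the groups at its top. In shKDM2B cells MAT2A was highest with 76.5 ± 0.850 CPM per kilobase, followed by AHCYL1 with 47.2 ± 1.12, AHCY with 36.2 ± 0.894 and MAT2B with 23.1 ± 0.600 (SD, n = 3). CTH with 10.2 ± 0.533 and MTR with 9.71 ± 0.266 overlapped there, above MTRR with 7.23 ± 0.181 and AHCYL2 with 2.63 ± 0.121 CPM per kilobase. In empty vector cells AHCY came first with 108.7 ± 3.07 CPM per kilobase, then MAT2A with 74.4 ± 0.593, AHCYL1 with 43.6 ± 1.05, MAT2B with 23.3 ± 0.619 and CTH with 12.4 ± 0.761. MTR with 10.8 ± 0.343 and MTRR with 10.6 ± 0.296 overlapped, above AHCYL2 with 2.19 ± 0.113. AHCY thus stood below MAT2A and AHCYL1 in shKDM2B cells and above both in empty vector cells. In both groups CBS, listed at 0, came last.

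The transcription factors of the series title were also lower in shKDM2B cells. ATF4, the factor of the amino acid response, had 134.8 ± 2.40 CPM in shKDM2B and 460.2 ± 46.4 CPM in empty vector cells (SD, n = 3 each), a log2 fold change of -1.77 (SE 0.07, adjusted p 4.55e-11). MYC, a driver of growth genes, had 141.9 ± 4.71 CPM in shKDM2B and 260.8 ± 12.8 CPM in empty vector cells, a log2 fold change of -0.88 (SE 0.05, adjusted p 5.29e-09). Their part in the change of AHCY was not tested.

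Tested genes whose pattern over the 6 libraries was most like that of AHCY were found by the root mean square difference of log2 CPM, each centred on its own mean. They included POLD2, an accessory subunit of DNA polymerase delta (0.0238), ANKS6, an ankyrin repeat protein (0.0365), HSP90AA1, an inducible cytosolic HSP90 chaperone (0.0380), and HSF1, the heat shock transcription factor (0.0422). POLD2 had 72.5 ± 0.375 CPM in shKDM2B and 219 ± 8.21 CPM in empty vector cells, and HSP90AA1 had 1263 ± 25.8 CPM in shKDM2B and 3947 ± 140.1 CPM in empty vector cells (SD, n = 3 each). Their log2 fold changes ran from -1.64 for HSP90AA1 to -1.55 for HSF1. Since the difference between the groups makes up most of each pattern, the measure mainly finds genes with a fold change near that of AHCY.

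The genes around the enzymes moved both ways. The lists were read by counts and medians. Over all tested genes the median was -0.01, with 30.4% called lower and 30.5% called higher, and each list's counts are to be read beside these shares. The values that follow are means ± SD (n = 3 each) with the log2 fold change of the edgeR fit in parentheses. In the folate and cobalamin supply of methionine synthase, 11 of 14 genes were tested, 2 were lower, 5 higher and 4 not called, with a median log2 fold change of 0.12. LMBRD1, which exports cobalamin from lysosomes, rose with 24.0 ± 2.53 CPM in shKDM2B and 12.5 ± 1.25 CPM in empty vector cells (log2 fold change 0.96, adjusted p 3.39e-06). ZNF143, a transcription factor that controls the cobalamin gene MMACHC, rose with 51.9 ± 3.04 CPM in shKDM2B and 34.9 ± 0.896 CPM in empty vector cells (0.57, adjusted p 6.11e-06). MMACHC itself had a log2 fold change of -0.03 (adjusted p 0.787). The lower genes were HCFC1, the cofactor of ZNF143 (-0.36, adjusted p 1.82e-05), and ABCD4, a lysosomal cobalamin transporter (-0.17, adjusted p 0.0459). The count of lower genes was 1 under 8 alternative settings, 5 of them leaving out 1 library: shKDM2B replicate 1, 2 or 3, or empty vector replicate 2 or 3.

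Of the 15 genes that use cysteine, make persulfides or build and break down glutathione, 13 were tested, 5 were lower, 5 higher and 3 not called, with a median of -0.12. CHAC1, which degrades glutathione, had 19, 18 and 27 counts in shKDM2B libraries, against 124, 128 and 200 in empty vector libraries, a log2 fold change of -2.90 (adjusted p 2.87e-09). MPST, which makes persulfide from mercaptopyruvate, fell with 27.9 ± 1.83 CPM in shKDM2B and 45.9 ± 7.86 CPM in empty vector cells (-0.72, adjusted p 5.21e-05). ETHE1, which oxidises persulfide in mitochondria, rose with 10.3 ± 0.248 CPM in shKDM2B and 6.07 ± 0.418 CPM in empty vector cells (0.76, adjusted p 1.15e-04).

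Of the 9 genes of methionine salvage and polyamine synthesis, 8 were tested, 4 were lower, 0 higher and 4 not called, with a median of -0.20. AMD1, which decarboxylates S-adenosylmethionine for polyamines, fell with 126 ± 4.22 CPM in shKDM2B and 238 ± 5.14 CPM in empty vector cells (-0.92, adjusted p 1.80e-09). ADI1 and ENOPH1, of the salvage of methylthioadenosine, had log2 fold changes of -0.87 (adjusted p 5.63e-08) and -0.34 (adjusted p 4.08e-05). MTAP, the first salvage enzyme, was not tested: it had 0 counts in all shKDM2B libraries and in empty vector replicates 1 and 3, and 2 counts in empty vector replicate 2.

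All 7 genes of S-adenosylmethionine sensing and transport and of adenosine clearance were tested, with 3 lower, 4 higher and a median of 0.22. BMT2, which carries the S-adenosylmethionine signal to mTORC1, rose with 16.7 ± 0.787 CPM in shKDM2B and 9.54 ± 1.67 CPM in empty vector cells (0.81, adjusted p 5.94e-05). SLC25A26, the mitochondrial carrier of S-adenosylmethionine, fell with 10.4 ± 0.852 CPM in shKDM2B and 16.4 ± 2.50 CPM in empty vector cells (-0.64, adjusted p 4.88e-04). NUDT21, a cleavage factor subunit involved in the processing of MAT2A RNA, fell with 86.3 ± 3.16 CPM in shKDM2B and 120.6 ± 18.9 CPM in empty vector cells (-0.48, adjusted p 0.00107). MAT2A was not called, as given above.

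Of the 20 methyltransferases of nucleic acids and arginine, all were tested, 12 were lower, 1 higher and 7 not called, with a median of -0.33. CMTR1, which methylates the RNA cap, fell with 34.6 ± 1.47 CPM in shKDM2B and 75.8 ± 6.18 CPM in empty vector cells (-1.13, adjusted p 8.36e-09). The DNA methyltransferase DNMT3B and the arginine methyltransferase PRMT7 had log2 fold changes of -0.87 (adjusted p 5.30e-06) and -0.70 (adjusted p 2.48e-06). The higher gene was PRMT6 (0.16, adjusted p 0.0261), whose call was lost under 8 alternative settings, among them without any 1 shKDM2B library and without empty vector replicate 3.

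Among 10 small-molecule methyltransferases, 7 were tested, 4 were lower, 1 higher and 2 not called, with a median of -0.46. GAMT, which makes creatine, fell with 27.7 ± 1.62 CPM in shKDM2B and 53.3 ± 6.47 CPM in empty vector cells (-0.94, adjusted p 5.31e-07). NNMT, which methylates nicotinamide, and HNMT, which methylates histamine, had log2 fold changes of -0.82 (adjusted p 5.74e-06) and -0.76 (adjusted p 7.64e-04). The higher gene was ICMT, the isoprenylcysteine methyltransferase (0.38, adjusted p 1.27e-05). Without empty vector replicate 2, the count of higher genes was 2.

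Of the 8 genes of the liver-type and betaine-dependent cycle, 2 were tested. PEMT, which makes phosphatidylcholine from phosphatidylethanolamine, fell with 8.98 ± 0.445 CPM in shKDM2B and 18.1 ± 1.11 CPM in empty vector cells (2.01-fold, adjusted p 1.30e-06). SARDH, the mitochondrial sarcosine dehydrogenase, rose with 16.9 ± 1.28 CPM in shKDM2B and 10.2 ± 1.55 CPM in empty vector cells (0.71, adjusted p 1.49e-04).

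**Figure D5:**
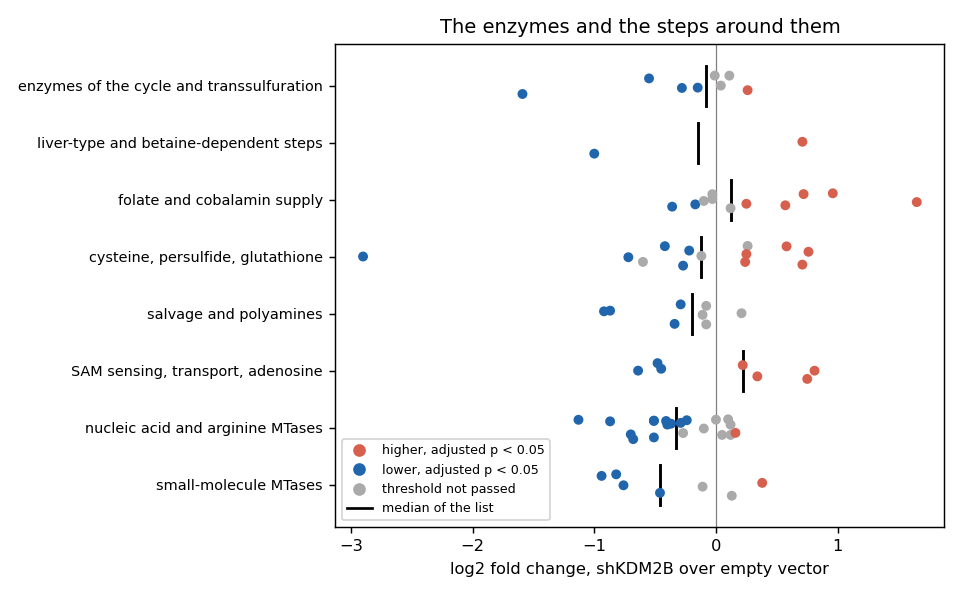
Log2 fold changes, shKDM2B over empty vector, of the tested enzymes (top) and of the tested genes of each of the 7 surrounding lists; points are genes, coloured by call, and bars are list medians. The medians of the 7 lists run from -0.46 for small-molecule methyltransferases to 0.22 for S-adenosylmethionine sensing, transport and adenosine clearance.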

How the data were processed

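RNA of 6 MDA-MB-231 libraries was sequenced after ribosomal RNA depletion, per the labels' protocols. The deposited values are raw read counts per gene; for the tools of the authors, the submitters' processing notes list featureCounts, STAR, Trim Galore, limma, edgeR and DESeq2, and GRCh38 (hg38) as the build. No source used here gives versions, roles, strand setting, annotation or the treatment of multi-mapped reads. The labels do not say whether replicates were separate cultures, so p-values reflect library-to-library spread that may be technical. No library was a copy of another (chi-square over degrees of freedom 2.00 to 10.0 within groups).

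Column names were matched to titles; the knockdown columns carry an unexplained code and belong to the only hairpin group. Loci and exon lengths are from GENCODE release 29 (58339 rows matched), and 61415 rows had a symbol. Genes were filtered with filterByExpr (minimum count 10, total 15), scaled by TMM and tested with the two-sided, robust quasi-likelihood test of edgeR 4.0.16 in R 4.3.3, with Benjamini-Hochberg adjustment over 14071 genes; an adjusted p under 0.05 is a call. SE is the log2 fold change over the root of F. The test was tried on simulated data. Intervals and floors cover counting error only. Members and lists were chosen with earlier results of these data known. Named genes are every member; KDM2B, MYC and ATF4; up to 3 called genes per list by size of change with a mean of at least 5 CPM; the 5 genes most like AHCY; and copies and overlapping genes. Some named genes are not reported here. List genes named besides these were chosen after their values were seen. Alternatives were other scalings, filters and tests (DESeq2 1.42.0, limma-voom from limma 3.58.1), leaving out each library, a replicate block, adding the counts of copies to a member, and testing for a change beyond 1.2-fold. Ratios were compared by exact permutation (scipy 1.17.1).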

Additional observations from a re-analysis of the deposited data

How the results depend on the processing

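AHCY (log2 fold change -1.62 to -1.56), MTRR (-0.58 to -0.54) and MAT2A (0.01 to 0.05) kept their direction and their side of the threshold under all 17 alternatives. KDM2B, MYC, ATF4 and the called list genes picked by size of change, 23 genes together, did so in all 368 alternative values. Other genes named outside the enzymes were not followed individually, and among them PRMT6 lost its call under some alternatives, as given above. MAT2B was at 0.00 without shKDM2B replicate 3 and without empty vector replicate 3, where its sign turned. Enzymes called higher numbered 1 in the comparison as reported. There were 2 with DESeq2's size factors, with a filter of 1 CPM in 3 libraries and with limma-voom, AHCYL1 joining with a log2 fold change of 0.11 in each and adjusted p of 0.0489, 0.0472 and 0.0414. There were 0 with the library total only, with no low-count filter, with DESeq2 and against a 1.2-fold change, where AHCYL2 had 0.23 (adjusted p 0.0504), 0.24 (0.0930), 0.27 (0.0892) and 0.26 (0.424). Against a 1.2-fold change the test asks for more, and 2661 genes were lower and 2797 higher, 2 enzymes were lower, MTR had -0.15 (adjusted p 1.00) and CTH -0.28 (0.354), and 11 list genes were higher, against 17 as reported. Leaving out 1 library gave 2 to 4 enzymes lower, the count of 2 without shKDM2B replicate 2. It gave 0 to 1 higher, 0 without shKDM2B replicate 1, shKDM2B replicate 2 or empty vector replicate 1. Without empty vector replicate 2, the enzyme called higher was AHCYL1 (adjusted p 0.0433), and AHCYL2 was not called (0.066). Log2 fold changes over these fits were 0.09 to 0.13 for AHCYL1, 0.21 to 0.30 for AHCYL2, -0.19 to -0.13 for MTR, -0.33 to -0.23 for CTH and -0.04 to 0.00 for MAT2B. Of 224 alternative counts for the single lists, 204 kept within 1.5 times and 20 moved. Same-numbered libraries had correlations of 0.118, -0.0258 and 0.0751, and differently numbered ones had -0.135 to 0.0838. With 3 libraries a group, these values cannot decide whether same-numbered libraries were handled together. The replicate block called 4230 genes lower and 4249 higher, 4 enzymes lower and 1 higher. Counts per library ran from 148 to 265 for AHCYL2 and from 262 to 430 for CTH, and CBS had 0. Beyond what the settings themselves change, the cause was not tested.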

Other observations

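The hexamer CGACAC, which had been linked to lower counts in earlier work on these data, occurs in the annotated 3′ UTR of 654 tested genes, with a median log2 fold change of -0.22, and is missing from that of 11338 tested genes, with a median of 0.01. Because the hexamer was taken from earlier work on these same data, the difference between the medians is no separate evidence for that link. For each gene, only the 3′ UTR of its longest annotated coding transcript was searched. The length of the 3′ UTR was not taken into account. The hexamer occurs 0 times in the searched 3′ UTR of all 9 enzymes, that of AHCY (764 bases) included.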
